A study of Mus musculus with 9 samples.

Results

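The genes described here are the matrix proteases and their relatives: the matrix metalloproteinases (*Mmp*), their tissue inhibitors (*Timp*), the ADAM and ADAMTS metalloproteinases, the ADAMTS-like proteins and the cathepsins (*Cts*). They were chosen by symbol alone, and 65 of the 14108 genes in the count tables matched, namely 17 *Mmp*, 3 *Timp*, 12 *Adam*, 16 *Adamts*, 5 *Adamtsl* and 12 *Cts* genes. The annotation of this build holds 102 such genes, and the other 37 were not analysed here. RNA had been counted in GFP-positive cells sorted from 9 mouse mammary tumours, 3 each of the models HR1, LM1 and LM9. HR1 is a non-metastatic line from a tumour of a mouse that carried mutant *PIK3CA* under the CAG promoter, so all 3 models share that oncogene. LM1 and LM9 are lines grown out of lung metastases of HR1 cells that carried an inducible *piggyBac* transposon, and the study treats both as models with high *Nfib*. For each tumour 250000 cells in Matrigel and PBS went into the mammary fat pad of a female NOD/SCID mouse aged 4 to 8 weeks, a host that lacks T and B cells, and tumours were taken before they reached 1500 mm3. Each LM model is a single cell line, and the labels do not say whether replicate tumours came from separate mice, so p-values measure the spread between these tumours only.

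Matrix metalloproteinases are zinc enzymes that cleave collagens, proteoglycans and other proteins outside the cell, and TIMPs bind and block them. ADAMs sit in the membrane and release the outer part of growth factors and receptors, while ADAMTS enzymes are secreted and cut proteoglycans and procollagens. ADAMTS-like proteins resemble the latter but have no protease domain. Cathepsins degrade proteins in the lysosome, and some are also secreted. In mammary tumours these enzymes come from tumour cells, fibroblasts, macrophages and other stromal cells, and in bulk RNA fewer cells of a type and less RNA per cell cannot be told apart.

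Total counts per tumour ran from 32393958 to 46681945, and the 65 genes took 0.836 to 1.55% of them. Levels are given as CPM (read counts relative to the TMM-adjusted library size, as counts per mega-read), and are compared between genes only per kb of exon. At 3 counts per tumour, taken as the smallest amount above 0, the floor lay well under 1 CPM, and floors and intervals cover counting error only. A single HR1 tumour stood apart. *Nfib*, the gene the models are defined by, was at 1343 CPM in HR1 replicate 1 but at 23.9 and 18.3 in replicates 2 and 3, against 421 to 791 in the 6 LM tumours. The correlation of log levels over all genes was 0.878 to 0.961 within HR1, 0.986 to 0.991 within LM1 and 0.990 to 0.991 within LM9. Because the library labelled HR1 replicate 1 goes against the low *Nfib* of its model, comparisons with HR1 are given with and without it.

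Marker genes of other cells were checked beside these results. As a background for every count of genes in LM tumours, 19.9% of all 14086 genes tested were higher and 23.6% lower, or 27.5 and 28.5% without HR1 replicate 1. Of 15 leukocyte markers, 10 were lower in LM than in HR1 tumours and none was higher, with and without HR1 replicate 1. Their summed level was 265 to 1176 CPM in HR1, 214 to 243 in LM1 and 207 to 250 in LM9. Of 10 fibroblast markers 9 were lower in LM tumours, or 7 without HR1 replicate 1, and *Col1a1* was the one that did not differ in the comparison of all tumours. Their sum was 22601 to 35911 CPM in HR1, 10680 to 14048 in LM1 and 9152 to 10699 in LM9. No marker of these 2 lists was at 0 in any tumour. Of 6 endothelial markers 2 (*Cdh5* and *Kdr*) were higher and 4 lower in LM tumours, and the sum was 4.84 to 26.8 CPM in HR1, 163 to 226 in LM1 and 252 to 290 in LM9. Of 6 epithelial markers 2 were lower in LM tumours (*Epcam* and *Krt5*), *Epcam* reached at most 4.49 CPM and *Cdh1* at most 1.20 CPM in any tumour, and *Krt8* and *Krt7* were not analysed here. *Krt14* was the one epithelial marker above that range, at up to 175 CPM. The epithelial sum was 7.55 to 121 CPM in HR1, 158 to 181 in LM1 and 14.4 to 18.0 in LM9. In LM1 versus HR1 none of the 6 was higher and 1 was lower (16.7 and 18.7% of all genes). Without HR1 replicate 1, 3 were higher and 2 lower in LM1 (26.9 and 26.0%). In LM9 versus LM1 none was higher and 3 were lower (11.5 and 10.6%). The part of other cell types in the results was not tested.

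Of the 65 genes 29 differed between LM tumours (LM1 and LM9 together) and HR1 at an adjusted p under 0.05, with 8 higher and 21 lower. Over all genes tested 19.9% were higher and 23.6% lower. The median log2 difference was -0.38 for the 65 genes and -0.046 for all genes. In LM1 versus HR1, 8 were higher and 19 lower, against 16.7 and 18.7% of all genes. In LM9 versus HR1, 8 were higher and 21 lower, against 20.4 and 21.9% of all genes. When HR1 replicate 1 was left out, 16 were higher and 25 lower in LM tumours (27.5 and 28.5% of all genes), 17 and 27 in LM1 (26.9 and 26.0%), and 15 and 24 in LM9 (27.9 and 27.8%). The calls shared in direction by the fits with and without it were 27, 25 and 27 in these comparisons. All 65 genes passed the filter on low counts, and 57 had a mean of at least 1 CPM in some group.

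**Figure D1:**
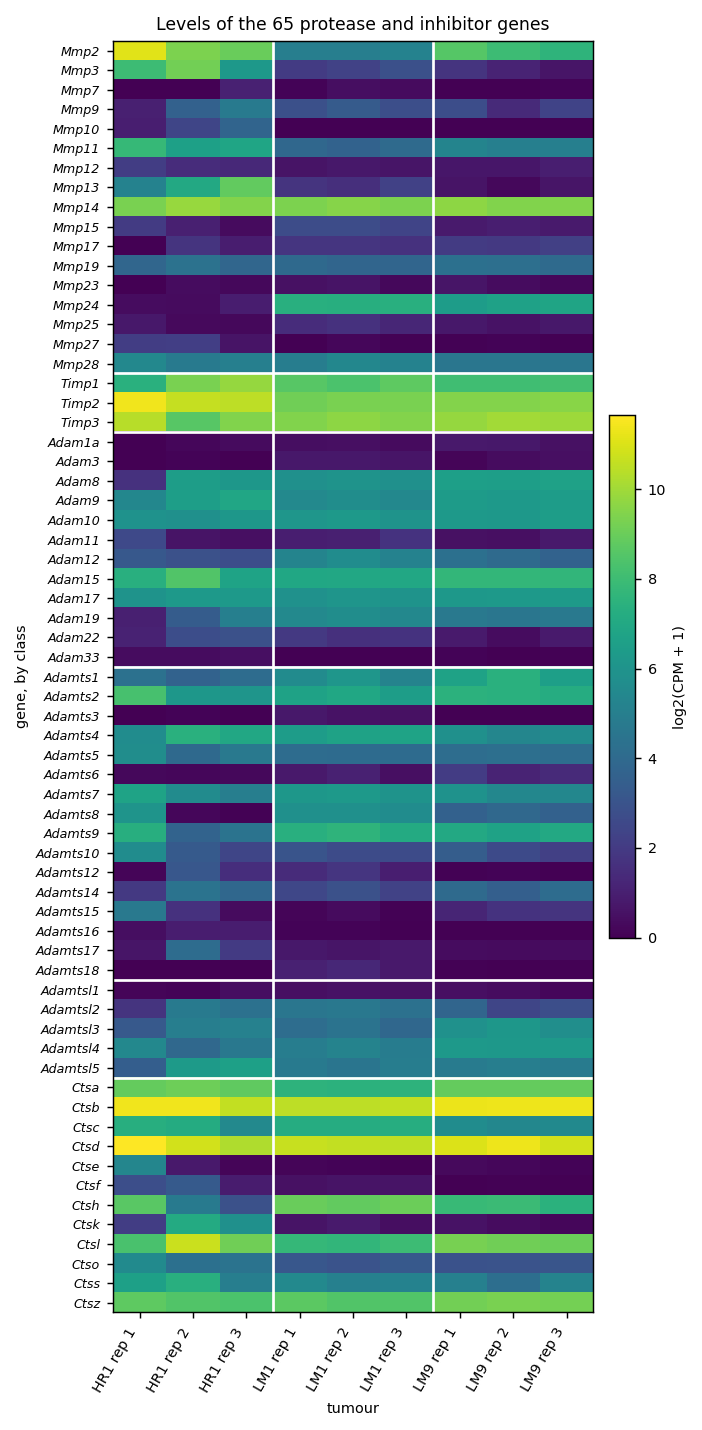
Levels of the 65 genes in each of the 9 tumours. Each line is a gene, grouped by class (white lines), columns are tumours, and colour gives log2(CPM + 1). *Ctsb*, *Ctsd* and *Timp2* were bright in every tumour, *Mmp3* and *Mmp13* were brighter in HR1, *Mmp24* was brighter in LM1 and LM9, and HR1 replicate 1 differed from its 2 fellow tumours in genes such as *Adam8*, *Adamts8* and *Ctsh*.

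Some of the largest falls were in a group of 6 *Mmp* genes that lie side by side on chromosome 9, from chr9:7272514 to chr9:7699585 (GRCm38), a stretch of 427 kb with the collagenase *Mmp13*, the macrophage elastase *Mmp12*, the stromelysins *Mmp3* and *Mmp10*, *Mmp27* and the matrilysin *Mmp7*. Sequence before the start of 4 of them is shown because a motif of the transcription factor AP-1, a dimer of Fos and Jun proteins long known at collagenase and stromelysin promoters, lies there. Each run holds the 110 bases before a RefSeq start (GRCm38.p6, plus strand) at chr9:7272404-7272513, chr9:7445712-7445821, chr9:7502232-7502341 and, for a downstream start of *Mmp12*, chr9:7347264-7347373, with matches to TGANTCA in capitals.
Mmp13: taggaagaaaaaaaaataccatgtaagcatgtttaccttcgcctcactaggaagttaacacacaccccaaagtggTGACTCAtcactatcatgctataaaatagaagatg
Mmp3: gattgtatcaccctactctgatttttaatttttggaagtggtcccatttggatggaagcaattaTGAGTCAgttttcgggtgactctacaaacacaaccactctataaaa
Mmp10: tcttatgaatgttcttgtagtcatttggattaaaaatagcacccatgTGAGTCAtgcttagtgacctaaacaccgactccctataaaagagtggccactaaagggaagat
Mmp12: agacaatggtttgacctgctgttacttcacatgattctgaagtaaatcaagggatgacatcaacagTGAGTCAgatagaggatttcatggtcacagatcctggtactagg

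The matches began 35, 46, 63 and 44 bases before the start, and TGANTCA reads the same on both strands. *Mmp7* also held a match, 63 bases before its start, and *Mmp27* held none in its window. Promoter windows (250 bases before to 50 after a start) were at hand for 44 of the 65 genes, which had 50 windows. TGANTCA was in 6 of the 50 windows, the sixth being that of *Adam19*, against 7.81% of all 32851 windows. Motifs were chosen with these values known, and a match is a description of the letters, not of binding.

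*Mmp13*, which cleaves fibrillar collagen, was at 34.9, 129 and 464 CPM in HR1 replicates 1 to 3. It was at 2.37, 1.95 and 3.71 CPM in LM1 and at 0.537, 0.206 and 0.585 CPM in LM9. The groups did not overlap, and the fall was 6.29 ± 0.95 (SE) on the log2 scale in LM1 (adjusted p = 0.00168) and 8.87 ± 1.09 in LM9 (adjusted p = 0.000587). Stromelysin 1, *Mmp3*, was at 252, 575 and 73.4 CPM in HR1, 3.05, 3.92 and 6.25 CPM in LM1, and 2.32, 1.24 and 0.563 CPM in LM9. Every LM tumour lay below the lowest HR1 tumour, and the log2 difference was -6.09 ± 0.85 in LM1 (adjusted p = 0.00121) and -7.77 ± 0.93 in LM9 (adjusted p = 0.000527). *Mmp10*, stromelysin 2, had 0.997, 4.48 and 12.6 CPM in HR1 and not a single count in any LM tumour. Set against a floor of 3 counts in each LM tumour it was at least 84.3-fold lower in LM1 and at least 91.0-fold lower in LM9. These 3 genes kept their fall without HR1 replicate 1, at -8.08 for *Mmp13* and -7.03 for *Mmp3* in LM tumours together.

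*Mmp12* and *Mmp27* were low in every tumour. *Mmp12* was at 3.36, 1.80 and 1.52 CPM in HR1, 0.546 to 0.657 CPM in LM1 and 0.618 to 0.968 CPM in LM9, and fell by 1.91 ± 0.42 on the log2 scale in LM1 and by 1.58 ± 0.42 in LM9 (adjusted p = 0.00895 and 0.0165). *Mmp27* was at 3.29, 3.49 and 0.515 CPM in HR1 and at no more than 0.136 CPM in an LM tumour, with a log2 difference of -5.26 ± 0.81 in LM tumours together. *Mmp7* was seen at 1.08 CPM in HR1 replicate 3 and at 0 in the other two, and its groups overlapped. In all, 5 of the 6 genes were lower in LM tumours together, in LM1 and in LM9, beside 23.6, 18.7 and 21.9% of all genes. Without HR1 replicate 1 it was again 5 in each, beside 28.5, 26.0 and 27.8%. The 9 other genes in the tables within 1 Mb of the cluster, chosen after the values of the cluster were seen, had log2 differences of -1.29 to 2.10 in LM tumours, with a median of -0.83. Of them *Dync2h1* and *Dcun1d5* were lower and *Trpc6* higher (23.6 and 19.9% of all genes). Without HR1 replicate 1 the range of the neighbours was -1.62 to 3.28 with a median of -1.02. Then 5 were lower, with *Tmem123*, *Yap1* and *Cfap300* added, and 1 higher (28.5 and 27.5% of all genes). The order along the chromosome is given as position only.

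**Figure D2:**
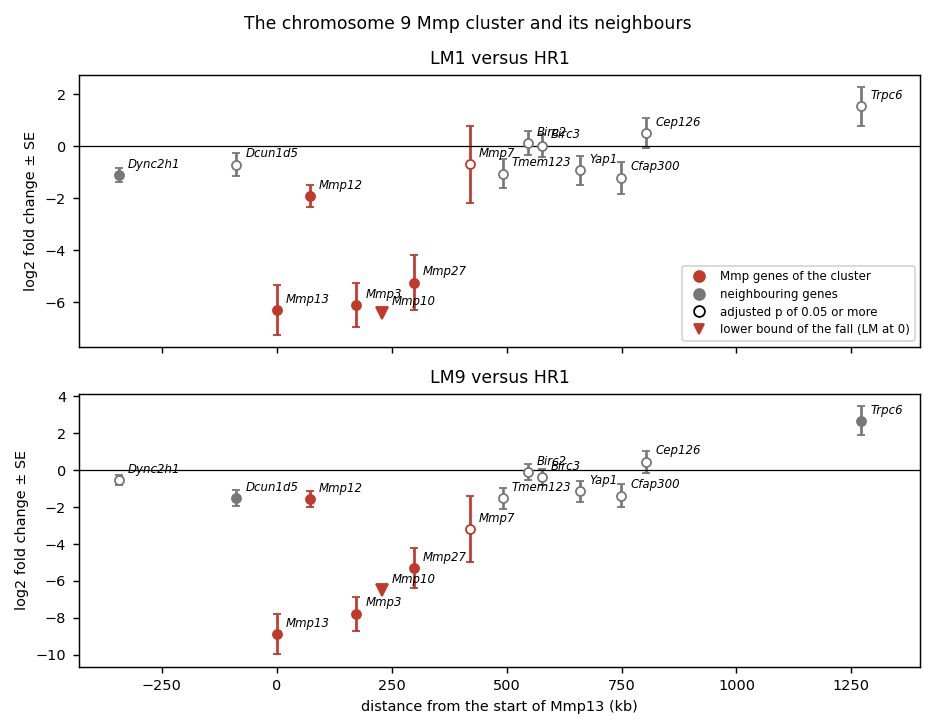
Log2 fold change with its SE against the distance of each gene from the start of *Mmp13*, in LM1 versus HR1 (top) and LM9 versus HR1 (bottom). Red points are *Mmp* genes of the cluster, grey points the 9 neighbours, filled points passed an adjusted p of 0.05, and the triangle for *Mmp10* is a lower bound of its fall. *Mmp13*, *Mmp3*, *Mmp10* and *Mmp27* lay below every neighbour in both panels.

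The genes of AP-1 itself were also examined. Of 12 AP-1 and ETS factor genes 6 were higher in LM tumours and 1, *Ets2*, was lower (19.9 and 23.6% of all genes), and without HR1 replicate 1 the counts were 9 and 1 (27.5 and 28.5%). *Fosb* was at 123, 52.9 and 75.6 CPM in HR1, 339, 503 and 301 CPM in LM1 and 1230, 1519 and 693 CPM in LM9. Its rise was 2.19 on the log2 scale in LM1 and 3.78 in LM9 (adjusted p = 0.00354 and 0.000375). *Junb*, another partner in the dimer, was at 228 to 313 CPM in HR1 and 662 to 1033 CPM in LM tumours. *Fos*, *Fosl2*, *Jun* and *Ets1* were the remaining genes higher in LM tumours.

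Outside the cluster, the gelatinase *Mmp2*, which degrades denatured and basement membrane collagen, differed in a graded way. It was at 2233, 658 and 511 CPM in HR1, 30.3, 30.1 and 35.1 CPM in LM1 and 379, 251 and 192 CPM in LM9. The 3 groups did not overlap, with LM9 between the others. The log2 difference from HR1 was -5.15 ± 0.61 in LM1 (adjusted p = 0.000586) and -2.05 ± 0.53 in LM9 (adjusted p = 0.0154). HR1 replicate 1 was the highest tumour, and leaving it out made these -4.19 and -1.09, both still past the threshold. LM9 was higher than LM1 by 3.10 ± 0.56 (adjusted p = 0.00699). *Mmp11*, stromelysin 3, followed the same order at 222, 98.0 and 112 CPM in HR1, 11.8 to 15.5 CPM in LM1 and 31.3 to 37.1 CPM in LM9. It was 10.5-fold lower in LM1 and 4.32-fold lower in LM9 than in HR1 (adjusted p = 0.000216 and 0.00102). Both are typical of stromal fibroblasts. Of the 10 fibroblast markers 6 were lower in LM1 and 9 in LM9 than in HR1, and none was higher, with and without HR1 replicate 1. Of all genes 18.7 and 21.9% were lower, or 26.0 and 27.8% without that tumour. In LM9 versus LM1 none of the 10 was higher and 2 were lower (*Lum* and *Dpt*), beside 11.5 and 10.6% of all genes. Without HR1 replicate 1 it was 1 and 5, beside 22.9 and 22.5%. The part of fibroblasts in *Mmp2* and *Mmp11* was not tested.

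A membrane-bound member moved in the opposite direction. *Mmp24* encodes MT5-MMP, known mainly from neurons. It was at 0.299, 0.270 and 0.926 CPM in HR1, at 160, 156 and 164 CPM in LM1 and at 85.6, 101 and 110 CPM in LM9. The groups were far apart, and HR1 replicate 1 lay with the other HR1 tumours. The rise was 8.31 ± 0.45 on the log2 scale in LM1 and 7.61 ± 0.44 in LM9 (adjusted p = 2.9e-05 and 1.90e-05). *Mmp25*, the membrane-anchored MT6-MMP of leukocytes, rose in LM1 from 0.180 to 0.698 CPM in HR1 to 1.35 to 2.15 CPM, while its LM9 tumours overlapped HR1. That overlap was with HR1 replicate 1 alone, and without it *Mmp25* was also higher in LM9 (1.59, adjusted p = 0.0147).

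*Mmp14* encodes MT1-MMP, the membrane enzyme that activates pro-MMP2, and was the steadiest of the abundant members. It was at 637, 909 and 723 CPM in HR1, 643, 732 and 650 CPM in LM1 and 817, 689 and 703 CPM in LM9, with adjusted p of 0.465 and 0.867 against HR1. *Mmp14* had 113 to 127 CPM per kb as a group mean, whereas *Mmp2* had 336 in HR1, 9.45 in LM1 and 81.3 in LM9, so the order of these 2 levels per kb was reversed between HR1 and LM tumours. The gelatinase *Mmp9* was at 1.06, 11.1 and 26.7 CPM in HR1, 5.99 to 9.26 CPM in LM1 and 1.65 to 5.67 CPM in LM9, and did not pass the test. Leaving out HR1 replicate 1, the lowest tumour for this gene, gave -1.85 in LM tumours (adjusted p = 0.00539). *Mmp28* was at 26.6 to 42.0 CPM in HR1 and at 22.7 to 22.8 CPM in LM9, a difference of -0.56 ± 0.20 (adjusted p = 0.0474) that missed the threshold without HR1 replicate 1 (adjusted p = 0.0847).

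Summed per kb over the 17 *Mmp* genes, the level was 557 to 1021 CPM per kb in HR1, 174 to 192 in LM1 and 223 to 296 in LM9. The *Mmp* class had 2 higher and 7 lower members in LM1 (16.7 and 18.7% of all genes), and 1 and 8 in LM9 (20.4 and 21.9%). Leaving out HR1 replicate 1 made these 3 and 8 in LM1 (26.9 and 26.0%) and 2 and 8 in LM9 (27.9 and 27.8%). Of the genes that act on these enzymes, 8 were listed. *Reck*, a membrane inhibitor of MMPs, was at 203, 11.9 and 55.2 CPM in HR1, 7.39 to 11.2 CPM in LM1 and 22.1 to 24.9 CPM in LM9. It was lower in LM tumours (-2.60, adjusted p = 0.0108), also without HR1 replicate 1 (-1.17, adjusted p = 0.0473). HR1 replicate 2 lay below every LM9 tumour, so the groups overlapped. *Pcsk7*, a proprotein convertase, was higher in both models, and was the only other regulator of the 8 that passed in LM tumours together with all tumours. The counts were thus 1 higher and 1 lower (19.9 and 23.6% of all genes), or 2 and 2 without HR1 replicate 1 (27.5 and 28.5%). *Tfpi2*, a secreted serine protease inhibitor of the matrix, was at 7.56 to 8.84 CPM in LM1 and at no more than 0.495 CPM in any other tumour. *Bsg*, the inducer of MMPs also called EMMPRIN, was at 3176 to 3739 CPM in LM9 against 1211 to 1374 CPM in LM1. *Furin*, which activates the membrane-type enzymes, did not pass in any comparison.

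**Figure D3:**
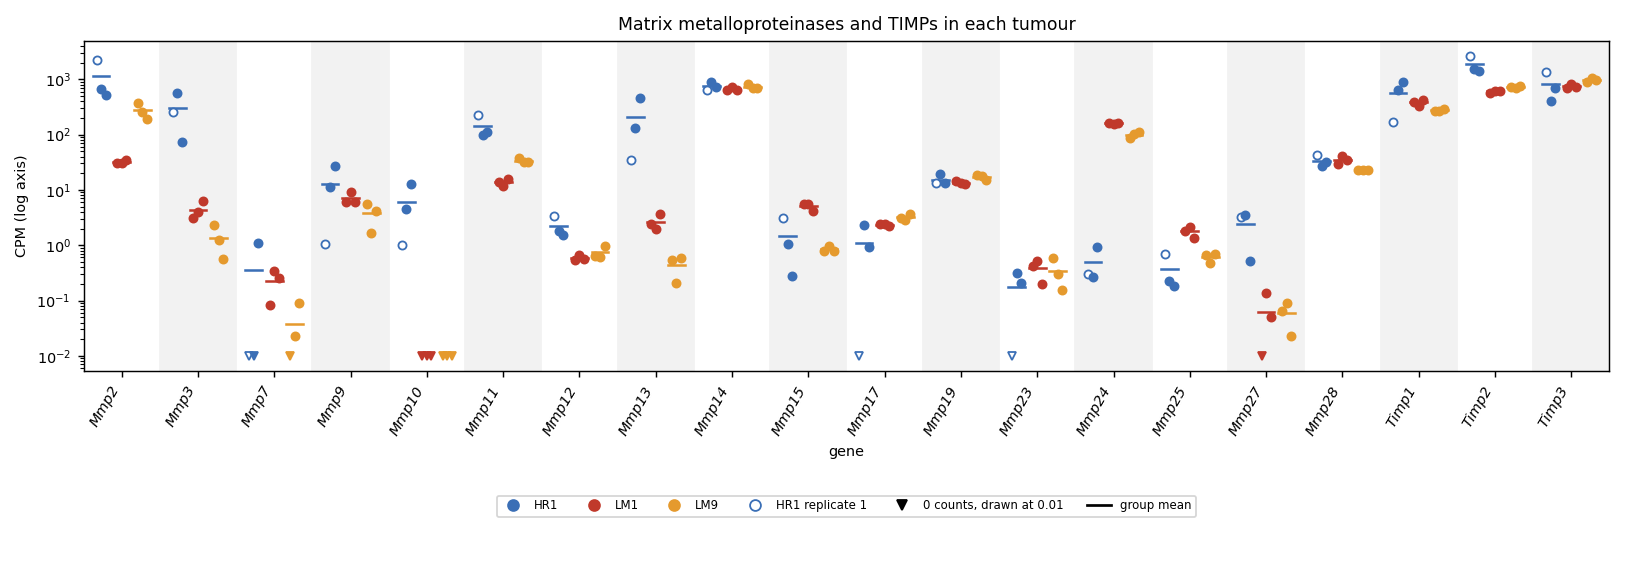
CPM (log axis) of the 17 *Mmp* and 3 *Timp* genes in each tumour. Points are tumours, coloured by model, the open point is HR1 replicate 1, lines are group means, and triangles are tumours with 0 counts, drawn at 0.01. *Mmp2*, *Mmp3*, *Mmp11* and *Mmp13* were higher in HR1 and *Mmp24* in LM1 and LM9, while *Mmp14* stayed between 637 and 909 CPM.

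Of the inhibitors, *Timp2*, which blocks MMP2 and also takes part in its activation by MT1-MMP, was lower in both LM models. It was at 2658, 1549 and 1429 CPM in HR1, 561, 621 and 621 CPM in LM1 and 713, 706 and 768 CPM in LM9. No LM tumour reached the lowest HR1 tumour, and the log2 difference was -1.64 ± 0.23 in LM1 and -1.37 ± 0.23 in LM9 (adjusted p = 0.00122 and 0.00229). *Timp1* was at 165, 635 and 898 CPM in HR1, 328 to 426 CPM in LM1 and 268 to 285 CPM in LM9. Here HR1 replicate 1 was below every LM tumour and replicates 2 and 3 were above them, and the difference passed only when replicate 1 was left out (-1.24 in LM tumours, adjusted p = 7.28e-05). *Timp3*, which binds to the matrix and also blocks ADAM17 and ADAMTS enzymes, was at 1344, 396 and 683 CPM in HR1, 685 to 819 CPM in LM1 and 887 to 1045 CPM in LM9. It did not pass with all tumours, and was higher in LM9 by 0.85 when HR1 replicate 1 was left out (adjusted p = 0.00700). The summed *Timp* level was 1033 to 1462 CPM per kb in HR1, 629 to 728 in LM1 and 594 to 639 in LM9, so each inhibitor sum of an LM tumour lay below those of HR1.

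Among the 12 ADAM genes 2 were higher and 2 lower in LM tumours, which is 16.7% each way beside 19.9 and 23.6% of all genes. With HR1 replicate 1 left out they were 2 and 3 (27.5 and 28.5%), with 4 and 5 in LM1 alone (26.9 and 26.0%). *Adam12*, a sheddase of EGF receptor ligands and IGF-binding proteins, was at 8.21, 6.42 and 5.66 CPM in HR1, 37.1, 49.3 and 35.2 CPM in LM1 and 18.7, 15.4 and 11.8 CPM in LM9. The 3 groups did not overlap. The rise was 2.58 ± 0.24 in LM1 (adjusted p = 0.000223) and 1.18 ± 0.23 in LM9 (adjusted p = 0.00466), and LM9 was lower than LM1 (-1.40 ± 0.23, adjusted p = 0.00505). Without HR1 replicate 1 the values were 2.75 and 1.34. Of the principal sheddases *Adam10*, which cleaves Notch receptors and cadherins, was at 57.2 to 88.2 CPM over all 9 tumours, and *Adam17*, which releases TNF and EGF receptor ligands, at 58.5 to 79.6 CPM. Neither passed against HR1 with all tumours, but without HR1 replicate 1 *Adam17* was lower in LM1 (-0.30, adjusted p = 0.0429).

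*Adam8*, a sheddase of leukocytes and tumour cells, was at 2.16, 88.3 and 71.2 CPM in HR1, 56.6 to 61.5 CPM in LM1 and 90.7 to 99.1 CPM in LM9, so that HR1 replicate 1 alone was low. *Adam9* was at 40.7, 91.8 and 116 CPM in HR1, 42.1 to 50.7 CPM in LM1 and 76.0 to 85.4 CPM in LM9. Neither passed with all tumours, and without HR1 replicate 1 both were lower in LM1 than in HR1 (-0.44 for *Adam8* and -1.18 for *Adam9*). *Adam15* ran from 107 to 361 CPM in HR1, a range that covered all LM tumours. Some low members, named here after their values were seen, also passed. *Adam22*, a catalytically inactive neural member, was at 1.20, 5.72 and 6.43 CPM in HR1 and 0.320 to 0.816 CPM in LM9 (-2.77 ± 0.64, adjusted p = 0.00929), and was lower in LM1 only without HR1 replicate 1 (-1.33, adjusted p = 0.0124). *Adam33* was at 0.293 to 0.412 CPM in HR1 and at 0 in LM1, at least 4.69-fold lower. *Adam3*, a sperm gene, was at no more than 0.0901 CPM in HR1 and 0.559 to 0.672 CPM in LM1.

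Of 7 ADAM partner genes 3 were lower in LM tumours (*Tspan5*, *Tspan14* and *Tspan17*, tetraspanins that escort ADAM10) and none was higher, beside 23.6 and 19.9% of all genes. Without HR1 replicate 1, 3 were lower and 2 higher, beside 28.5 and 27.5%. *Tspan17* was at 147, 165 and 88.0 CPM in HR1 and at 31.6 to 42.4 CPM in LM tumours. *Rhbdf2*, the rhomboid relative that ADAM17 needs to mature, was at 5.75, 35.0 and 25.1 CPM in HR1 and 35.0 to 59.2 CPM in LM tumours, and passed only without HR1 replicate 1 (0.58, adjusted p = 0.0223).

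*Adamts1*, a secreted enzyme that cleaves versican and aggrecan and is known for blocking VEGF, was higher in both LM models. It is shown with its promoter because the bases 200 to 101 before its RefSeq start (chr16:85803214-85803313, minus strand) hold the palindrome TGGCNNNNNGCCA, to which NFI factors such as NFIB bind, in capitals.
Adamts1: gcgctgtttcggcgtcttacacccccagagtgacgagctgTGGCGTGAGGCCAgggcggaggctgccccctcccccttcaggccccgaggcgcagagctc

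That palindrome was found in 0.807% of all 32851 windows and in 2 of the 50 windows of these genes, those of *Adamts1* and *Timp2*. It began 160 bases before the *Adamts1* start and 11 bases after the *Timp2* start. *Adamts1* was at 19.2, 11.8 and 16.6 CPM in HR1, 48.3, 68.8 and 35.9 CPM in LM1 and 103, 167 and 94.1 CPM in LM9. All 9 tumours lay in the order HR1, LM1, LM9 with no overlap. The rise was 1.69 ± 0.31 in LM1 (adjusted p = 0.00414) and 2.94 ± 0.33 in LM9 (adjusted p = 0.000375), and 1.85 and 3.10 without HR1 replicate 1. *Timp2* was lower in LM tumours, so the 2 genes with the palindrome differed in opposite directions. In HR1 replicate 1, the HR1 tumour with high *Nfib*, *Adamts1* was at the HR1 level and *Timp2* was the highest of all 9 tumours. That is a single tumour, and the part of NFIB in either gene was not tested.

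Among the 16 ADAMTS genes 3, *Adamts3*, *Adamts12* and *Adamts18*, were lower in LM9 than in LM1 and 1, *Adamts1*, was higher. Over all genes 10.6% were lower and 11.5% higher. Without HR1 replicate 1 the counts were 6 lower and 5 higher (22.5 and 22.9%). In the 6 LM tumours alone they were 8 lower and 5 higher of 15 tested (28.0 and 28.3%). Against HR1, 3 were higher and 4 lower in LM tumours (19.9 and 23.6%), or 7 and 5 without HR1 replicate 1 (27.5 and 28.5%). *Adamts6* rose from 0.158 to 0.199 CPM in HR1 to 0.381 to 1.09 CPM in LM1 and 1.26 to 3.13 CPM in LM9 (2.03 ± 0.55 and 3.48 ± 0.57, adjusted p = 0.0207 and 0.00195). *Adamts18* had no count in HR1, 0.737 to 1.43 CPM in LM1 and at most 0.0450 CPM in LM9, and was at least 13.7-fold higher in LM1 than in HR1. *Adamts3*, a procollagen N-proteinase, was found at 0.457 to 0.693 CPM in LM1 with 3 counts in all of HR1 and 1 in LM9. *Adamts12* was at 0.0997, 8.06 and 1.90 CPM in HR1, 0.965 to 2.51 CPM in LM1 and at most 0.0687 CPM in LM9, where the fall passed (adjusted p = 0.0116). *Adamts17* was at 0.598, 16.3 and 2.88 CPM in HR1, 0.589 to 0.762 CPM in LM1 and 0.252 to 0.301 CPM in LM9, lower in both models. *Adamts16* was at 0.332, 0.923 and 0.901 CPM in HR1, at most 0.0840 CPM in LM1 and 0 in LM9, at least 10.9-fold lower there. *Adamts4*, an aggrecanase, was at 49.9, 168 and 125 CPM in HR1 and 39.9 to 57.1 CPM in LM9 (-1.24 ± 0.37, adjusted p = 0.0269), while LM1 at 85.7 to 107 CPM lay above HR1 replicate 1 and below the other HR1 tumours. Without that tumour *Adamts4* was also lower in LM1 (-0.56, adjusted p = 0.0286) and in LM tumours together (-1.08, adjusted p = 0.000351).

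For several genes the outcome turned on HR1 replicate 1, and *Adamts8*, *Adamts9* and *Ctsh* are named for this after their values were seen. *Adamts8*, an enzyme reported to slow vessel growth, was at 63.2 CPM in HR1 replicate 1 and 0.135 and 0.0515 CPM in replicates 2 and 3, against 49.7 to 57.2 CPM in LM1 and 11.1 to 14.4 CPM in LM9. *Adamts9* was at 159, 12.0 and 20.8 CPM in HR1, 136 to 192 CPM in LM1 and 104 to 130 CPM in LM9. HR1 replicate 1 lay among the LM tumours or above them in both genes. With all tumours neither passed (adjusted p of 0.882 and 0.226 for LM tumours together), and without it the rise was 8.04 and 3.11 on the log2 scale (adjusted p = 1.32e-07 and 1.09e-05). *Adamts2*, a procollagen N-proteinase, was at 308, 71.4 and 66.1 CPM in HR1, 87.0 to 123 CPM in LM1 and 149 to 179 CPM in LM9, and its direction turned from -0.18 to 0.94 when that tumour was left out (adjusted p = 0.000505). *Adamts15* went the other way, at 25.5, 2.21 and 0.283 CPM in HR1, 0.0508 to 0.249 CPM in LM1 and 1.31 to 2.32 CPM in LM9. Its fall of 4.15 ± 1.06 in LM tumours (adjusted p = 0.0130) was 1.26 without HR1 replicate 1 (adjusted p = 0.132). Its fall in LM1 passed both ways, at -6.06 with that tumour and -3.16 without it (adjusted p = 0.0157 and 0.0106).

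Of the 5 ADAMTS-like genes 2 rose and none fell in LM9, beside 20.4 and 21.9% of all genes, or 2 and 2 without HR1 replicate 1, beside 27.9 and 27.8%. *Adamtsl4*, linked to fibrillin microfibrils, was at 42.2, 14.1 and 24.1 CPM in HR1, 28.7 to 36.3 CPM in LM1 and 73.1 to 76.5 CPM in LM9 (1.48 ± 0.34 over HR1, adjusted p = 0.00848). In LM1 it was higher only without HR1 replicate 1 (0.73, adjusted p = 0.0155). *Adamtsl3* was at 8.41, 30.3 and 33.6 CPM in HR1, 13.7 to 20.8 CPM in LM1 and 53.5 to 70.6 CPM in LM9 (1.33 ± 0.44 over HR1, adjusted p = 0.0378), and was lower in LM1 only without HR1 replicate 1 (-0.89, adjusted p = 0.00310). *Adamtsl2*, named after its values were seen, was at 2.33, 25.6 and 19.2 CPM in HR1 and 4.46 to 13.0 CPM in LM9, lower there only without that tumour (-1.52, adjusted p = 0.00926). *Adamtsl5* was at 10.2, 80.4 and 98.4 CPM in HR1 and 22.2 to 30.1 CPM in LM tumours, lower only without HR1 replicate 1 (-1.72, adjusted p = 4.97e-06).

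Among 8 ADAMTS substrate genes 2 were higher in LM tumours and 3 lower (19.9 and 23.6% of all genes), or 2 and 4 without HR1 replicate 1 (27.5 and 28.5%). The fibrillins parted: *Fbn1* was at 25.7, 328 and 231 CPM in HR1 and 12.6 to 43.2 CPM in LM tumours (adjusted p = 0.00373), while *Fbn2* was at 0.0997, 0.811 and 1.18 CPM in HR1 and 10.6 to 14.0 CPM in LM1, and was higher in LM tumours (3.69, adjusted p = 0.00172). *Col1a2* and *Col3a1* were lower in LM tumours, *Acan* was higher, at no more than 6.48 CPM, and *Vcan*, the main substrate of ADAMTS1, was at 0.849 to 2.43 CPM in every tumour and did not pass. Against HR1, 2 of the 8 were higher and 3 lower in LM1 (16.7 and 18.7% of all genes). In LM9 it was 1 and 3 (20.4 and 21.9%), so *Fbn2* and *Acan* did not both pass there.

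**Figure D4:**
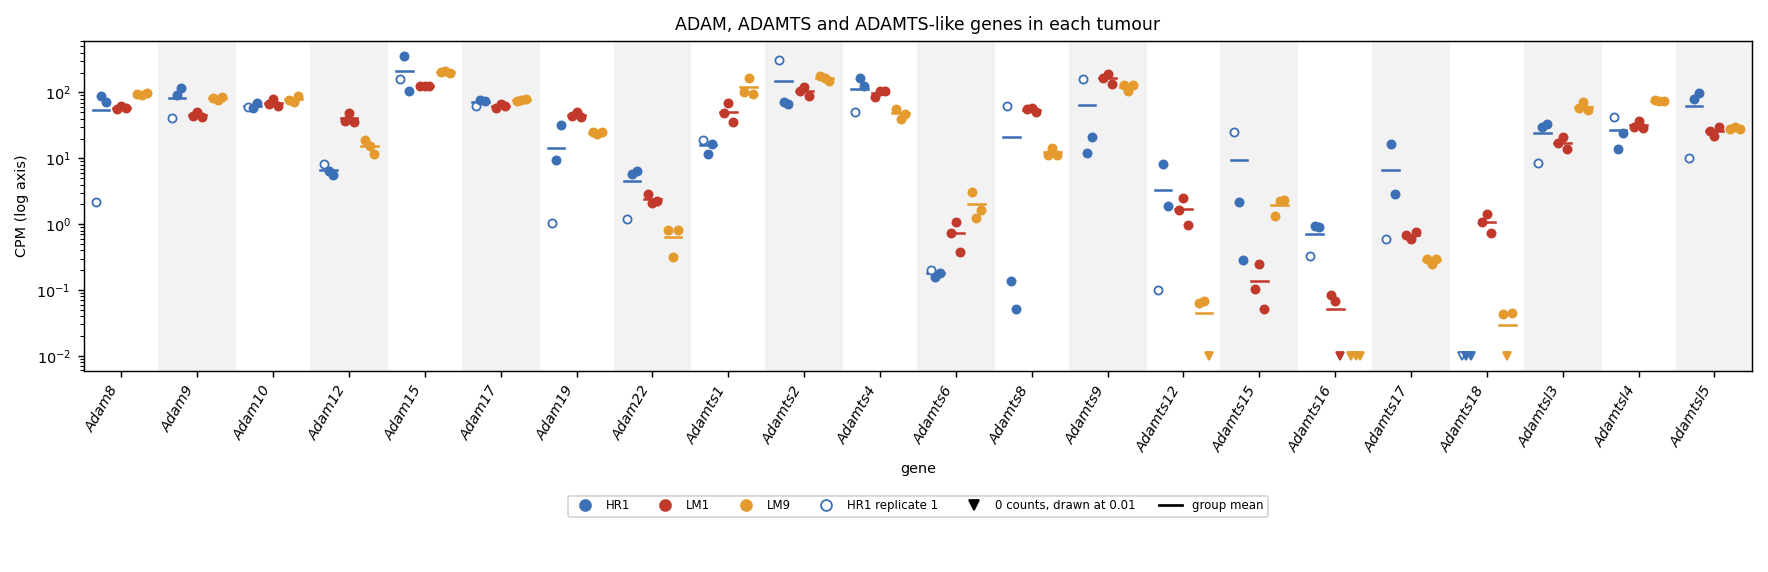
CPM (log axis) of 22 ADAM, ADAMTS and ADAMTS-like genes in each tumour, with models by colour, HR1 replicate 1 as an open point, group means as lines and 0 counts as triangles at 0.01. *Adam12* and *Adamts1* were higher in all LM tumours than in all HR1 tumours, and the open point lay with the LM tumours in *Adamts8* and *Adamts9* and far below every other tumour in *Adam8*.

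Summed over the 12 cathepsins, the level was 1255 to 2468 CPM per kb in HR1, 1355 to 1451 in LM1 and 1876 to 2256 in LM9. Of the 12 genes none was higher and 7 were lower in LM tumours together, beside 19.9 and 23.6% of all genes. None was higher and 7 were lower in LM1 (16.7 and 18.7%), and 1 was higher and 6 lower in LM9 (20.4 and 21.9%). Without HR1 replicate 1 the counts were 2 and 6 in LM tumours (27.5 and 28.5%), 1 and 5 in LM1 (26.9 and 26.0%), and 2 and 6 in LM9 (27.9 and 27.8%). *Ctsk*, the collagen-degrading cathepsin of osteoclasts and fibroblasts, had one of the largest falls among cathepsins. It was at 3.36, 136 and 56.8 CPM in HR1, 0.546, 0.793 and 0.356 CPM in LM1 and 0.494, 0.320 and 0.158 CPM in LM9. HR1 replicate 1 was nearest to the LM tumours but above them all. The log2 difference was -6.84 ± 1.22 in LM1 and -7.64 ± 1.27 in LM9 (adjusted p = 0.00350 and 0.00223).

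*Ctsf* was at 6.02, 8.76 and 0.875 CPM in HR1, 0.420 to 0.521 CPM in LM1 and 2 counts in all of LM9, a ratio of 357 with a 95% counting interval of 98.5 to 2958. *Ctso*, named after its values were seen, was at 47.1, 18.8 and 20.9 CPM in HR1 and 6.76 to 8.38 CPM in LM tumours, lower in both models (-1.90 ± 0.34 and -2.05 ± 0.34, adjusted p = 0.00338 and 0.00211). *Ctse*, likewise, was at 39.2 CPM in HR1 replicate 1 and at no more than 0.720 CPM in any other tumour, so its call was lost without that tumour (adjusted p = 0.0551 in LM tumours).

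*Ctss*, the cathepsin of antigen-presenting cells, was at 98.1, 161 and 30.2 CPM in HR1, 32.5 to 43.0 CPM in LM1 and 17.2 to 35.6 CPM in LM9. HR1 replicate 3 lay within the LM range, and the fall passed in LM9 (-1.75 ± 0.53, adjusted p = 0.0274) but not in LM1 (adjusted p = 0.0685). The summed leukocyte markers were also lowest in that HR1 tumour, at 265 CPM. Single markers differed: *C1qa* was at 170, 217 and 43.3 CPM in HR1 and 6.73 to 13.2 CPM in LM9, whereas *Cd68* was at 24.2, 122 and 41.2 CPM in HR1, 15.9 to 17.9 CPM in LM1 and 107 to 138 CPM in LM9. The part of leukocytes in *Ctss* was not tested.

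*Ctsl* and *Ctsa* were lower in LM1 than in HR1. *Ctsl*, a broad endopeptidase, was at 318, 1657 and 549 CPM in HR1, 202 to 252 CPM in LM1 and 523 to 606 CPM in LM9 (-1.92 ± 0.51 in LM1, adjusted p = 0.0200). In LM9 it did not pass with all tumours (adjusted p = 0.375) and passed without HR1 replicate 1 (-0.96, adjusted p = 0.0489). *Ctsa*, a serine carboxypeptidase that also protects lysosomal beta-galactosidase and neuraminidase, was at 477, 543 and 447 CPM in HR1, 185, 180 and 185 CPM in LM1 and 473, 479 and 473 CPM in LM9. It fell by 1.42 ± 0.12 in LM1 (adjusted p = 0.000164), and LM9 exceeded LM1 by 1.37 ± 0.12 (adjusted p = 0.000491) and lay in the HR1 range. The abundant *Ctsb* was at 2660, 2726 and 1514 CPM in HR1, 1414 to 1521 CPM in LM1 and 2546 to 2625 CPM in LM9, lower in LM1 at an adjusted p of 0.0420 that became 0.0504 without HR1 replicate 1.

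*Ctsd*, the aspartic protease, had the highest mean per kb over the 9 tumours, although *Timp1* was higher per kb in HR1 replicate 3. It was at 3200, 1870 and 1240 CPM in HR1, 1482 to 1600 CPM in LM1 and 1815 to 2643 CPM in LM9 and did not pass. *Ctsz* was at 325 to 436 CPM in HR1, 353 to 414 CPM in LM1 and 564 to 626 CPM in LM9, and was the cathepsin that rose in LM9 with all tumours (0.67 ± 0.15, adjusted p = 0.00764). *Ctsc*, which activates granule serine proteases, was at 157, 141 and 43.5 CPM in HR1, 148 to 151 CPM in LM1 and 40.4 to 50.1 CPM in LM9, lower in LM9 (-1.33 ± 0.39, adjusted p = 0.0251). *Ctsh*, an aminopeptidase, was at 409, 26.0 and 6.43 CPM in HR1, 454 to 527 CPM in LM1 and 174 to 245 CPM in LM9. HR1 replicate 1 lay between the LM models, and the rise in LM tumours was 4.34 without it (adjusted p = 0.000236) and did not pass with it (adjusted p = 0.385).

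Other genes of the lysosome were examined beside the cathepsins. Of 23 lysosome genes none was higher and 15 were lower in LM1 than in HR1 (16.7 and 18.7% of all genes), with a median log2 difference of -0.79. In LM9 1 was higher and 2 were lower (20.4 and 21.9%), with a median of -0.028. LM9 was higher than LM1 in 13 and lower in none (11.5 and 10.6%). When HR1 replicate 1 was left out, 18 were lower in LM1 (26.0%), 1 was higher and 2 were lower in LM9 (27.9 and 27.8%), and 18 were higher in LM9 than in LM1 (22.9%). The cathepsins had 3 higher and 2 lower in LM9 than in LM1, or 5 and 3 without HR1 replicate 1, and the difference between the lists was not tested. *Psap*, the saposin precursor, was at 2461 to 3886 CPM in HR1, 785 to 898 CPM in LM1 and 2140 to 2355 CPM in LM9. *Tfeb*, a regulator of lysosomal genes, was lower in both models, at 45.2 to 58.5 CPM in HR1 and 20.6 to 32.6 CPM in LM tumours. Its target motif TCACGTGA lies in 0.974% of all windows and in 2 of the 50 windows, those of *Ctsa* and *Ctsd*. It is shown for *Ctsd*, whose level did not pass in any comparison of all tumours, in the bases 150 to 51 before the start (chr7:142387878-142387977, minus strand, motif in capitals).
Ctsd: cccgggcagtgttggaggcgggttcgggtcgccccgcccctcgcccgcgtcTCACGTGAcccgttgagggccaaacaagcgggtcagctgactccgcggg

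Of 10 cathepsin partners 1 was higher and 5 lower in LM tumours (19.9 and 23.6% of all genes), or 2 and 6 without HR1 replicate 1 (27.5 and 28.5%). *Cst3*, the secreted inhibitor cystatin C, was at 2430, 1071 and 942 CPM in HR1, 2036 to 2713 CPM in LM1 and 1332 to 1591 CPM in LM9, higher only without HR1 replicate 1 (0.90, adjusted p = 0.000621). *Lgmn*, the protease that trims cathepsins in the lysosome, was lower in both models, and *Sort1*, a sorting receptor, was at 2.16 to 13.6 CPM in HR1 and at most 0.883 CPM in LM tumours.

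**Figure D5:**
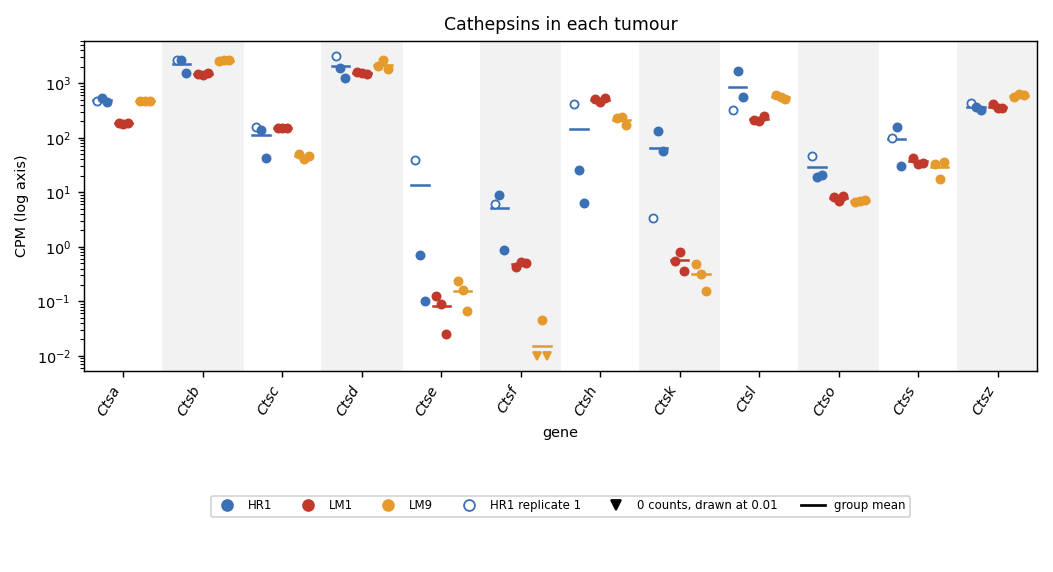
CPM (log axis) of the 12 cathepsins in each tumour, with models by colour, HR1 replicate 1 as an open point, group means as lines and 0 counts as triangles at 0.01. *Ctsk* and *Ctso* were lower in all LM tumours than in all HR1 tumours, *Ctsa*, *Ctsb* and *Ctsl* were lower in LM1 than in LM9, *Ctsc* was lower in LM9 than in LM1, and the open point lay with the LM tumours in *Ctsh*.

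Between the LM models 17 of the 65 genes differed, 9 higher and 8 lower in LM9, against 11.5 and 10.6% of all genes. The spread of the HR1 tumours enters this test, since all groups share 1 estimate. Without HR1 replicate 1 it gave 18 higher and 19 lower (22.9 and 22.5% of all genes), and with only the 6 LM tumours 21 higher and 24 lower of 59 tested (28.3 and 28.0%), including 16 of the 17. Higher in LM9 were *Mmp2*, *Mmp11*, *Adam33*, *Adamts1*, *Adamtsl3*, *Adamtsl4*, *Ctsa*, *Ctsb* and *Ctsz*. Lower in LM9 were *Mmp15*, *Mmp28*, *Adam12*, *Adamts3*, *Adamts12*, *Adamts18*, *Ctsc* and *Ctsf*. *Mmp15*, MT2-MMP, was at 5.46, 5.48 and 4.17 CPM in LM1 and 0.794, 0.984 and 0.788 CPM in LM9, a fall of 2.55 ± 0.70 (adjusted p = 0.0326). Among genes that passed in the 6 LM tumours alone but not with all 9 were *Ctsl* (1.33, adjusted p = 3.54e-06), *Mmp24* (-0.71, adjusted p = 0.000283), *Mmp13* (-2.59, adjusted p = 0.000205) and *Timp1* (-0.49, adjusted p = 0.00362).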

How the data were processed

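Poly(A) RNA of sorted GFP-positive cells was sequenced from 9 tumours, 3 per model, and group and replicate were taken from the sample labels. The authors deposited whole-number counts per Entrez gene for each tumour, made by aligning reads to mm10 with STAR and counting 5′ ends over the exon union of each gene with QuasR. Tool versions and the strand setting of the counts are not given in the sources used here, so overlapping and antisense genes may share reads. The tables list 14108 genes, each with 7 or more counts in at least 3 tumours. Symbols came from RefSeq and GENCODE M21 (GRCm38), with 14089 genes matched, and promoter sequences from RefSeq (GRCm38.p6).

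Counts were scaled by TMM, filtered by expression (14086 genes tested, 22 left out) and tested with edgeR 4.0.16 by its robust quasi-likelihood method (R 4.3.3) in 1 model over 3 groups of 3, with Benjamini-Hochberg adjustment over all tested genes at 0.05. SE is the size of the log2 fold change over the square root of F. LM tumours stand for the mean of the LM1 and LM9 coefficients. Where a group had no count, the fold was taken against 3 counts in each of its tumours, and with few counts a ratio is given with its 95% exact interval. Alternatives were RLE or plain library size, no filter, a minimum of 1 CPM in 3 tumours, limma-voom (limma 3.58.1), no robust step, DESeq2 1.42.0, a replicate block, each tumour left out and a 2-fold minimum. The fit of the 6 LM tumours alone was added after the data were seen.

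Tested on simulated counts for LM against HR1 over 14086 genes, edgeR recovered 44% of 2-fold and 82% of 4-fold changes with 6.67% false among its calls, limma-voom 39 and 81% with 7.69%, and DESeq2 67 and 97% with 26.1%. The simulation gave all groups the same spread for a gene and changed only 100 genes by each fold. In these data HR1 tumours differed more among themselves and far more genes were called, so these rates need not hold here. Within a model no 2 tumours agreed within sampling noise. The genes, marker lists and motifs were chosen with earlier results of these data known. Genes were named by a rule: in each comparison up to 8 members with the largest called rise and 8 with the largest called fall, with at least 1 CPM on a side and no overlap, every *Timp*, the 3 highest per class per kb, and well known tumour proteases. Those outside it are said to be named after their values were seen, and these also include *Mmp7* and *Mmp12* of the chromosome 9 cluster, *Adamts3*, *Adamts16*, *Adam19* and genes listed only for a change of direction. Lists covered leukocyte, fibroblast, endothelial, mast cell and epithelial markers, MMP regulators, ADAM partners, ADAMTS substrates, cathepsin partners, lysosome genes and AP-1 and ETS factors. Tables and figures were made with Python 3.11.15, pandas 2.3.3, numpy 2.4.6, scipy 1.17.1 and matplotlib 3.10.9.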

Additional observations from a re-analysis of the deposited data

Results flagged for a closer look

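In 17 genes the change from HR1 was not the same in the LM models, by the test of LM9 against LM1, which is the difference of the 2 changes. On the log2 scale LM9 exceeded LM1 in *Mmp2* (3.10), *Adamtsl3* (1.82), *Ctsa* (1.37), *Mmp11* (1.28), *Adamts1* (1.25), *Adamtsl4* (1.24), *Ctsb* (0.83) and *Ctsz* (0.67). LM9 was below LM1 in *Mmp15* (-2.55), *Ctsc* (-1.72), *Adam12* (-1.40) and *Mmp28* (-0.64). In 5 genes a model had next to no counts, and the fitted values depend on the prior count: *Adam33* (4.20, with 0 counts in LM1 and 7 in LM9), *Adamts3* (-5.71, with 72 and 1 counts), *Adamts12* (-5.18, with 228 and 6 counts), *Adamts18* (-5.06, with 144 and 4 counts) and *Ctsf* (-4.76, with 63 and 2 counts). As ratios of counts these were 77.4 (95% counting interval 13.5 to 3098) for *Adamts3*, 40.8 (18.5 to 112) for *Adamts12*, 38.7 (14.8 to 144) for *Adamts18* and 33.9 (8.99 to 286) for *Ctsf*. Of the 17, 16 also passed in the 6 LM tumours alone, where *Adam33* was not tested. *Ctsa* is the clearest of them in the values, since its LM1 tumours lay at 180 to 185 CPM and its LM9 tumours at 473 to 479 CPM.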

How the results depend on the processing

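Over the 65 genes, 167 pairs of a gene and a comparison passed with all tumours or without HR1 replicate 1. Of these, 102 passed with all tumours, none of the 102 changed direction under any alternative, and 60 passed under every one in which they were tested. The 2-fold minimum is not among these alternatives, since it was applied to the counts alone, which became 27 for LM tumours together, 26 for LM1, 27 for LM9 and 14 for LM9 versus LM1. Apart from leaving out single tumours, counts that moved by over 1.5 times were 17 in LM1 versus HR1 with a minimum of 1 CPM in 3 tumours, where fewer genes were tested, and in LM9 versus LM1 26 with DESeq2 and 45 in the 6 LM tumours alone. With 1 tumour left out at a time the counts ran from 25 to 41 for LM tumours together, 19 to 44 for LM1, 19 to 39 for LM9 and 5 to 37 for LM9 versus LM1. The highest were each without HR1 replicate 1, which moved LM1 versus HR1 and LM9 versus LM1 by over 1.5 times. So did leaving out LM9 replicate 2 for LM9 versus HR1 (19) and each LM tumour for LM9 versus LM1, which gave 6, 9 and 5 without LM1 replicates 1 to 3 and 6, 7 and 7 without LM9 replicates 1 to 3. The cause was not tested. Limma-voom called 13 higher and 16 lower in LM tumours. With a replicate block the counts were 24, 23, 22 and 13, but the numbers did not pair the tumours (correlations of same-numbered deviations of -0.117 to 0.162). Some genes short of the threshold with all tumours changed direction. With limma-voom and with the replicate block these were *Adamts2* (0.21 and 0.11) and *Adamts7* (0.088 and 0.034) in LM tumours, *Adam11* in LM1 (0.48 and 0.061) and *Adamts8* in LM9 (4.20 and 1.89). With 1 tumour left out they were, in LM tumours, *Timp3* (-0.25 to 0.66), *Adamts2* (-0.53 to 0.94), *Adamts7* (-0.45 to 0.55), *Adamts8* (-0.29 to 8.04) and *Adamts14* (-1.05 to 0.0046), in LM1, *Mmp9* (-1.40 to 0.21), *Adam8* (-0.44 to 0.67), *Adam11* (-0.92 to 1.62), *Adamts2* (-0.86 to 0.61), *Adamts4* (-0.56 to 0.18), *Adamts7* (-0.17 to 0.83) and *Adamtsl4* (-0.071 to 0.73), and in LM9, *Timp3* (-0.060 to 0.85), *Adamts2* (-0.20 to 1.27), *Adamts8* (-1.36 to 6.96), *Ctsh* (-0.00610 to 3.74) and *Ctsl* (-0.96 to 0.38). Genes that passed neither with all tumours nor without HR1 replicate 1, such as *Adamts15* and *Mmp15* in LM9, are not in this list and could change sign as well. Low counts limit the precision for genes under 1 CPM.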

Other observations

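A further set of proteases, outside the gene families above, separated HR1 from the LM models. The mast cell enzymes *Cpa3* (carboxypeptidase A3), *Cma1* (chymase), *Mcpt4* (mast cell protease 4) and *Tpsb2* (a tryptase) were present in every HR1 tumour and nearly missing from LM tumours. *Tpsb2* was at 16.3, 25.1 and 10.7 CPM in HR1, 0.420, 0.0453 and 0.508 CPM in LM1 and 0.172, 0.0229 and 0.135 CPM in LM9. *Cpa3* was at 8.88, 9.12 and 5.89 CPM in HR1 and at most 0.279 CPM in an LM tumour. Of 5 mast cell markers these 4 enzymes were lower in LM tumours and none was higher, with and without HR1 replicate 1. Of all genes 23.6% were lower and 19.9% higher, or 28.5 and 27.5% without that tumour. The log2 differences of the 4 genes ran from -5.88 in *Cma1* (adjusted p from edgeR of 0.000394) to -6.50 in *Tpsb2* (0.000193). For them HR1 replicate 1 lay with the other HR1 tumours. *Kit*, the mast cell receptor that other cells also use, did not follow them, at 1.08 to 9.70 CPM in HR1, 17.0 to 19.0 CPM in LM1 and 1.01 to 6.04 CPM in LM9. The cells had been sorted as GFP-positive, and whether the RNA came from mast cells in the sort was not tested.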
